A study of Homo sapiens with 18 samples.

Results

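The genes PRG2, PRG3, EPX, HDC, CLC, CPA3, MS4A2, FCER1A and GATA1, whose products characterise eosinophils, basophils and mast cells, were followed in NB4, an established human acute promyelocytic leukemia line that matures under all-trans retinoic acid (ATRA). They were taken as a list of 9 by name. Each was read from the probe set annotated to that gene alone. On that rule 8 of the 9 were measured, each by 1 probe set, out of 18417 genes that the platform annotation lets be read in this way. MS4A2, the beta chain of the high-affinity IgE receptor, was not analysed here. The 18 arrays came from total RNA and formed 6 groups of 3 samples described as biological replicates. Wild-type NB4 cells and an NB4 line called TG2 knockout in the sample names were each untreated, or given 1 µM ATRA for 48 h or for 72 h. TG2 is transglutaminase 2, the product of TGM2, a protein-crosslinking enzyme. The sample codes of the second line carry the letters KD. Nothing in the labels says how the line was made or whether it is 1 clone, so line and genotype cannot be told apart. It is called knockout below, as in the names. Whether replicates came from separately grown cultures is not stated further, so the p-values measure the spread between these samples, which may be technical.

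Eosinophils, basophils and mast cells are granule-bearing cells of allergic and antiparasitic responses. Eosinophil granules store cationic proteins such as major basic protein and eosinophil peroxidase, whereas basophils and mast cells store histamine and carry the high-affinity IgE receptor, whose crosslinking by antigen empties the granules. GATA1 is a transcription factor required for eosinophils, mast cells, megakaryocytes and red cells, and in the bone marrow eosinophil granule proteins are made at an early, promyelocyte-like stage. ATRA releases the block that the PML-RARA fusion receptor places on promyelocytic leukemia cells and drives them toward neutrophils.

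The promoter sequences bear on the members because GATA factors and retinoic acid receptors bind short DNA motifs. RefSeq promoter sequences (build GRCh38.p14) were matched for 7 of the 9 genes by gene symbol. No entry was matched for PRG2 and EPX. HDC and CLC are shown, being the matched members that fell and rose furthest under ATRA. Each line is the 250 bases that end at the base before the annotated start, 5′ to 3′ on the gene's strand. HDC is chr15:50265727-50265976 and CLC is chr19:39738030-39738279, both on the minus strand. Capitals mark the GATA spelling AGATAA or its variant ending in G, which is AGATAG, the spelling TGATAA or its variant ending in G, which is TGATAG, and also AGGTCA, the half-site spelling of nuclear receptors, on either strand.
HDC: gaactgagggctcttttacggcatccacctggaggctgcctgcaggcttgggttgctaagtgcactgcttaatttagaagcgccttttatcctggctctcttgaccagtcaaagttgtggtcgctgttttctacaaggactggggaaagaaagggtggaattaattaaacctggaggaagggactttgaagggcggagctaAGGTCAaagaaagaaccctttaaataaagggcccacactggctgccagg
CLC: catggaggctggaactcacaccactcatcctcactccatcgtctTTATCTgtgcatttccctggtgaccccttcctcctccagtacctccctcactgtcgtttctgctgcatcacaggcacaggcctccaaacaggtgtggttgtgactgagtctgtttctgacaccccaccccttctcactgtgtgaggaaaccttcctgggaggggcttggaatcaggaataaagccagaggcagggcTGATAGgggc
HDC held no GATA spelling and 1 AGGTCA. CLC held 2 GATA spellings, AGATAA on the opposite strand and TGATAG on its own strand, and no AGGTCA. Some GATA spelling was present in 5 of the 7 matched members (PRG3, CLC, CPA3, MS4A2 and FCER1A), against 22.9% of 27305 promoter stretches of the same length. AGGTCA was present in 1 of 7, against 12.1% of all stretches. These matches describe letters in a window and were not tested for binding.

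The deposited values were read as log2 signal, and differences below are log2 differences unless a fold is named. Array medians lay between 6.12 and 6.26. TGM2 itself rose in both lines, from 6.43 to 12.27 at 48 h and 12.37 at 72 h in wild-type cells and from 6.39 to 10.95 and 11.24 in the knockout. It was lower in the knockout by -1.31 at 48 h (adjusted p = 0.0345) and by -1.13 at 72 h (adjusted p = 0.0267). Myeloperoxidase (MPO), a defining promyelocyte granule enzyme, stood at 12.69 ± 0.03 (SD, n = 3) in untreated wild-type cells and proteinase 3 (PRTN3) at 11.99 ± 0.06. The defining eosinophil receptor IL5RA stood at 4.19 ± 0.07. Other eosinophil genes did not all read low there. PRG2 stood at 11.25 and EPX at 8.13, and RNASE2, given below, was also high, whereas PRG3 stood at 5.44 and CLC at 4.01. Replicates spread more under ATRA: the median SD per probe set was 0.0757 in untreated wild-type cells, 0.0985 in the untreated knockout and 0.215 to 0.243 in the ATRA groups. On the first principal component, which held 57.1% of the variance, 4 ATRA arrays lay nearer the untreated ones: replicate 1 of wild-type cells at 48 h, replicates 1 and 3 of the knockout at that time, and replicate 2 of the knockout at 72 h. Results for the called members are given below with and without them. Leaving them out keeps 1 knockout array at 48 h, so such values for that group rest on 1 array.

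PRG2, which encodes major basic protein, the main protein of the eosinophil granule core, was high in untreated cells and fell steeply under ATRA in both lines. Its 3 untreated wild-type arrays read 11.28, 11.21 and 11.27. After 48 h of ATRA they read 7.89, 8.11 and 7.64, and after 72 h 7.75, 7.79 and 7.07. Every ATRA array was thus below every untreated one. The fall was -3.37 ± 0.20 (SE) at 48 h (adjusted p = 4.34e-09), leaving 9.65% of the untreated signal, and -3.72 at 72 h (adjusted p = 1.31e-09), leaving 7.61%. In the knockout the untreated arrays read 10.56, 10.53 and 10.50. They were followed by 7.52, 7.72 and 7.27 at 48 h and by 6.94, 7.65 and 7.35 at 72 h. Those falls were 8.15-fold at 48 h (adjusted p = 1.9e-08) and 9.30-fold at 72 h (adjusted p = 8.6e-09), again with no overlap. Without the 4 arrays that lay nearer the untreated ones, the changes were -3.38 and -3.72 in wild-type cells and -2.81 and -3.39 in the knockout. In these bulk samples, fewer cells carrying a transcript and less transcript per cell cannot be told apart.

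EPX, the gene of eosinophil peroxidase, a haem enzyme of the granule matrix, also fell in both lines. It read 8.18, 8.11 and 8.09 in untreated wild-type cells and 8.18, 8.23 and 7.97 in the untreated knockout. Under ATRA the wild-type arrays read 6.55, 6.69 and 6.29 at 48 h and 6.08, 6.48 and 6.65 at 72 h. The knockout arrays read 6.65, 6.53 and 6.58, then 6.02, 6.43 and 6.61. All 12 ATRA arrays lay below all 6 untreated arrays. The falls were 3.07-fold (adjusted p = 1.58e-06) and 3.30-fold (adjusted p = 7.05e-07) in wild-type cells. In the knockout they were 2.91-fold (adjusted p = 2.81e-06) and 3.42-fold (adjusted p = 7.28e-07). Without the 4 arrays the changes lay between -1.60 and -1.81.

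HDC, histidine decarboxylase, the enzyme that makes histamine and a product of basophils and mast cells, fell in both lines as well. Untreated wild-type arrays read 9.73, 9.65 and 9.73, and untreated knockout arrays 9.61, 9.63 and 9.57. With ATRA the wild-type arrays read 6.31, 6.46 and 5.66 at 48 h and 6.05, 6.32 and 5.84 at 72 h. The knockout arrays read 6.61, 6.14 and 5.80, then 6.16, 6.74 and 6.16. Treated and untreated arrays did not overlap in either line. The falls were 11.8-fold (adjusted p = 9.39e-09) and 12.4-fold (adjusted p = 6.68e-09) in wild-type cells. In the knockout they were 10.7-fold (adjusted p = 2e-08) and 9.51-fold (adjusted p = 3.34e-08). The change without the 4 arrays was between -3.44 and -3.64. The single AGGTCA in the promoter stretch printed above lies 49 to 44 bases before the start of this gene.

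CLC, which encodes galectin-10, the protein of Charcot-Leyden crystals in eosinophils and basophils, moved the other way in wild-type cells. It read 3.95, 4.03 and 4.04 untreated, 4.97, 5.33 and 5.27 at 48 h, and 6.35, 4.56 and 5.45 at 72 h. All treated wild-type arrays were above the untreated ones, and the 72 h arrays were widely spread. The rise was 1.18 ± 0.29 (SE) at 48 h (adjusted p = 0.00443), or 2.27-fold, and 1.45 ± 0.29 at 72 h (adjusted p = 0.00085), or 2.73-fold. The 72 h rise was 1.00 without replicate 1 of that group (adjusted p = 0.00203) and 1.89 without replicate 2 (adjusted p = 8.37e-06). In the knockout CLC read 4.07, 4.32 and 4.05 untreated, 4.60, 4.36 and 4.66 at 48 h, and 4.70, 4.47 and 4.63 at 72 h. Treated arrays again lay above untreated ones, by 0.39 (adjusted p = 0.29) and 0.45 (adjusted p = 0.221), which did not pass the test. A fit to the compared groups alone called the 72 h rise (adjusted p = 0.0463), as it did 43.8% of all probe sets. Leaving out the 4 arrays gave 1.29 and 1.45 in wild-type cells and 0.21 and 0.52 in the knockout, the 0.21 resting on 1 array at 48 h.

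**Figure D1:**
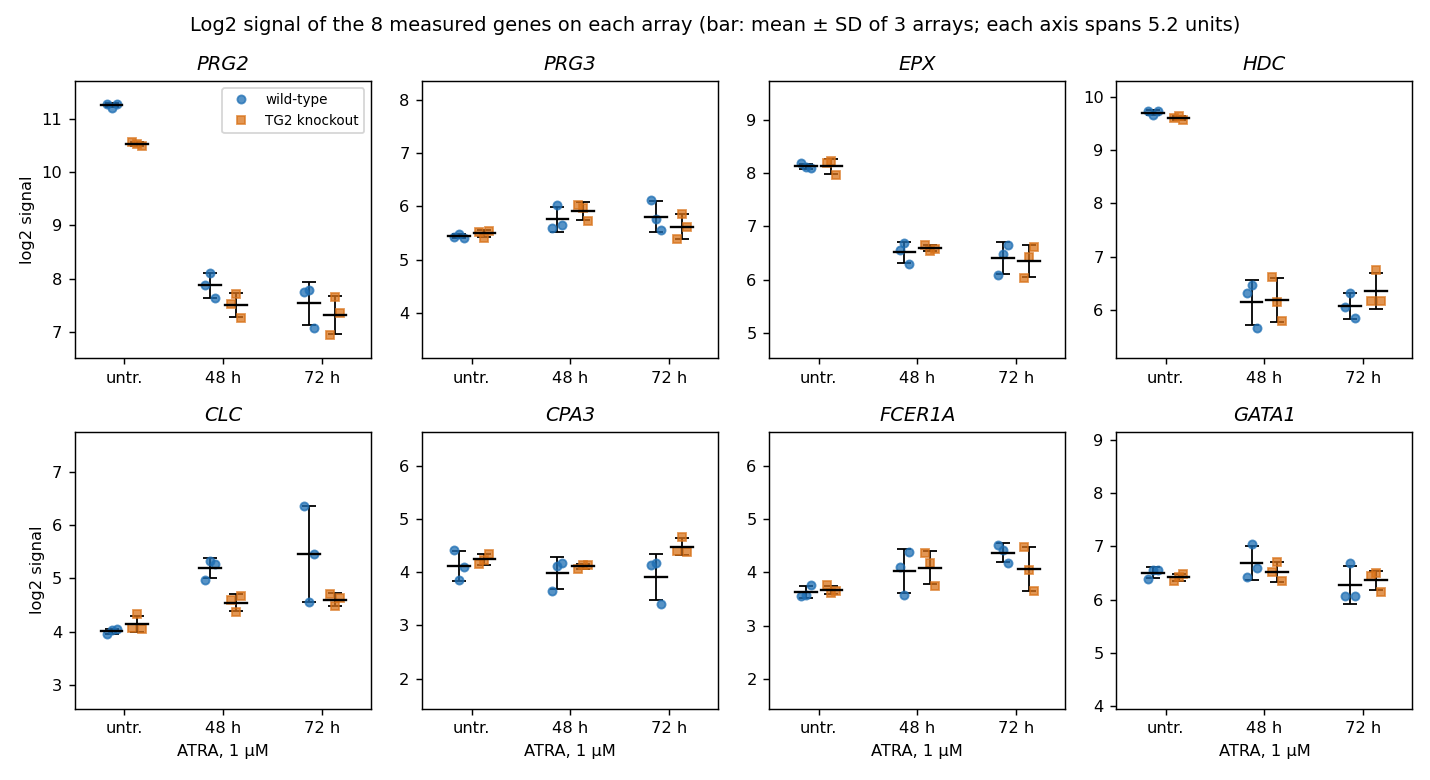
Log2 signal of the 8 measured genes on each of the 18 arrays, by line and ATRA time; points are arrays and bars are group means. PRG2, EPX and HDC drop in both lines under ATRA, from group means of 11.25, 8.13 and 9.70 in untreated wild-type cells, while CLC is highest in ATRA-treated wild-type cells.

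PRG3, a close homologue of PRG2 in eosinophil granules, did not follow PRG2. In the RefSeq gene table the PRG2 and PRG3 genes are neighbours among protein-coding genes on chromosome 11. PRG3 lay between 5.39 and 6.11 on all arrays. It read 5.43, 5.48 and 5.40 in untreated wild-type cells and 6.11, 5.76 and 5.55 at 72 h. Its one change called by the fit over all 18 arrays was a rise of 0.42 ± 0.16 (SE) in the knockout at 48 h (adjusted p = 0.0498), close to the threshold. There the arrays read 6.03, 5.97 and 5.72 against 5.52, 5.41 and 5.54 untreated, without overlap. Without the 4 arrays the rise was 0.48 and the call was lost (adjusted p = 0.0909), with 1 array left in that group, assumed to vary like the others. In all it was lost in 8 of 15 alternative settings. At 72 h in wild-type cells the change was 0.37 (adjusted p = 0.0749). It was called with weights per group (adjusted p = 0.0262; 53% of all probe sets called) and without wild-type 72 h replicate 3 (0.50, adjusted p = 0.0322; 38.1% called).

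FCER1A, the IgE-binding alpha chain of the high-affinity IgE receptor, rose at 72 h in wild-type cells. It read 3.56, 3.57 and 3.76 untreated and 4.52, 4.42 and 4.17 at 72 h, with no overlap. That rise was 0.74 ± 0.23 (SE), or 1.67-fold (adjusted p = 0.0168), and it missed the threshold after quantile normalization (0.49, adjusted p = 0.123) and without untreated replicate 1 (adjusted p = 0.0529), untreated replicate 2 (0.0515) or 72 h replicate 1 (0.0558). None of the 4 arrays belongs to these groups, and without them the call held (adjusted p = 0.0222). In the knockout FCER1A read 3.76, 3.62 and 3.65 untreated and 4.47, 4.05 and 3.65 at 72 h, a change of 0.38 (adjusted p = 0.198). CPA3, mast cell carboxypeptidase, lay between 3.41 and 4.66 on all arrays, with ATRA changes from -0.22 to 0.24. GATA1 lay between 6.06 and 7.04, with changes from -0.23 to 0.19. Neither gene passed the test in any ATRA comparison.

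In counts, limma called 4 of the 8 genes at 48 h in wild-type cells, 1 higher and 3 lower, where 38.9% of all 33297 probe sets were called. At 72 h it called 5, 2 higher and 3 lower, against 44% of all probe sets. In the knockout 4 were called at 48 h, 1 higher and 3 lower, against 41.4%, and 3 at 72 h, all lower, against 42%. The 3 genes called lower in each of these comparisons were PRG2, EPX and HDC. Of all probe sets, 19.3% were called higher and 19.6% lower at 48 h in wild-type cells, 23.1% and 21% at 72 h, 21.5% and 19.9% at 48 h in the knockout, and 22.8% and 19.2% at 72 h. Treated and untreated arrays did not overlap for 5, 6, 6 and 5 of the 8 genes in the same order, against 58.1%, 62.3%, 57.5% and 57.8% of all probe sets. The members' counts called in either direction lay above the shares of all probe sets called, except in the knockout at 72 h. Those called lower lay above the shares called lower in each comparison. Those called higher lay below the shares called higher, except in wild-type cells at 72 h. With only 8 genes, chosen with earlier results of these data known, the counts describe and do not test. The median change of the 8 genes was 0.02, -0.22, -0.01 and 0.04, beside 0.10, 0.12, 0.14 and 0.13 for all probe sets. That background depended on brightness. Among the 16650 probe sets with the higher mean signal the medians were -0.09, -0.10, -0.10 and -0.10. Those of PRG2, EPX, HDC and GATA1 are among these brighter ones. In a fit to the brighter ones alone, 38.3%, 38.4%, 39.7% and 37.6% of the called were higher. Among all called probe sets these shares were 49.6%, 52.4%, 51.9% and 54.3%. The wild-type comparisons at both times share their untreated arrays, as do those in the knockout.

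**Figure D2:**
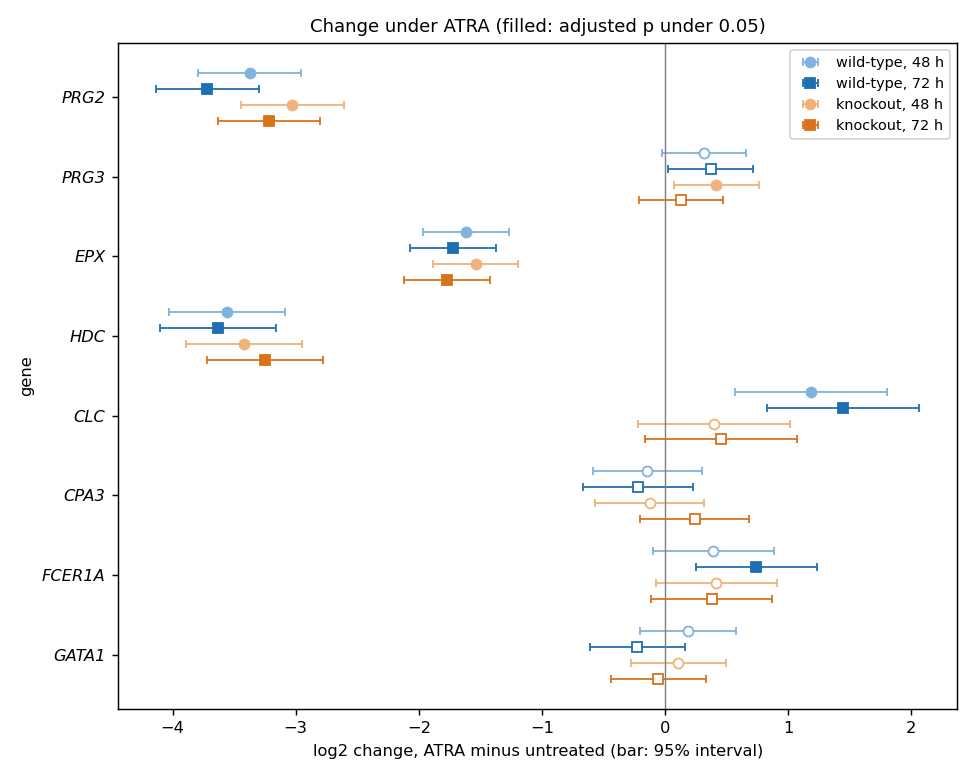
ATRA minus untreated, as log2 difference with its 95% interval, for the 8 genes at 48 h and 72 h in each line. PRG2 and HDC lie between -3.03 and -3.72, EPX between -1.54 and -1.77, and the other genes near or above 0.

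Probe sets differ in affinity, so their signals do not rank transcripts. As a description of the array alone, the PRG2 probe set stood at percentile 97.1 of all probe sets in untreated wild-type cells, HDC at 89.5 and EPX at 75.1. In their lowest group they stood at 67.5 for PRG2, 47.7 for HDC and 52.8 for EPX. CLC stayed between percentiles 15.2 and 36.3 across the group means, CPA3 between 11.8 and 18.5, and FCER1A between 11.4 and 17.4. No detection calls were used here, so whether these dim probe sets stood above background was not measured.

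The 6 group means fell in this order for PRG2: untreated wild-type, untreated knockout, wild-type 48 h, wild-type 72 h, knockout 48 h and knockout 72 h. Of the 5 steps between neighbours, only that from untreated knockout to wild-type 48 h, of 2.65, passed the test (adjusted p = 6.07e-08). For EPX the untreated groups had the same mean, followed by knockout 48 h, wild-type 48 h, wild-type 72 h and knockout 72 h. Only the step of 1.54 from the untreated knockout to knockout 48 h passed (adjusted p = 2.81e-06). For HDC the order was untreated wild-type, untreated knockout, knockout 72 h, knockout 48 h, wild-type 48 h and wild-type 72 h, and only the step of 3.25 from untreated knockout to knockout 72 h passed (adjusted p = 3.34e-08). For CLC the order ran from wild-type 72 h through wild-type 48 h, knockout 72 h, knockout 48 h and untreated knockout to untreated wild-type. No step between neighbours passed for CLC, PRG3, CPA3, FCER1A or GATA1.

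From 48 h to 72 h of ATRA, limma called 0 of the 8 genes in either line, where it called 0% of all probe sets. At unadjusted p under 0.05 there was 1 gene in wild-type cells and 0 in the knockout, beside 1952 and 2732 of all 33297 probe sets. That gene was GATA1, at -0.41 (adjusted p = 0.824).

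The comparison of the lines asks whether these genes differed between wild-type and knockout cells, before or during ATRA treatment. It cannot tell the genotype from other differences between the lines. In untreated cells limma called 0 of the 8 genes, where 0.00601% of all probe sets were called. At unadjusted p under 0.05 there was 1 gene, beside 382 of all 33297 probe sets. That 1 gene was PRG2, whose untreated knockout arrays all lay below the untreated wild-type arrays. The difference was -0.72 ± 0.20 (SE; 95% interval -1.14 to -0.31; adjusted p = 1), so the knockout mean was 60.6% of the wild-type one. The replicates differed by far less, with an SD of 0.04 in wild-type cells and 0.03 in the knockout. A fit to the 6 untreated arrays alone, which leaves out the wider ATRA groups, called it (adjusted p = 0.000219), in a setting that called 0.853% of all probe sets. So did weights per group (adjusted p = 0.000198; 0.928% of all probe sets). The log2 of the summed signal of 3 further eosinophil markers, RNASE2, IL5RA and SIGLEC8, nearly all of it from RNASE2 (11.38 in untreated wild-type cells), ran from 11.40 to 11.45 in untreated wild-type cells and from 11.01 to 11.37 in the untreated knockout, and its part in this difference was not tested. HDC differed by -0.10 and EPX by 0.00 in untreated cells. Arrays of the untreated lines did not overlap for 3 of the 8 genes (PRG2, HDC and CLC), against 18.1% of all probe sets.

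At 48 h, limma called 0 of 8 between the lines, against 0.021% of all probe sets. Unadjusted p was under 0.05 for 1 gene, beside 1972 of all 33297 probe sets. CLC was the 1 gene, lower in the knockout by -0.65 (95% interval -1.27 to -0.03; adjusted p = 0.816). Its arrays did not overlap between the lines, as held for 1 of the 8 genes and 6.76% of all probe sets. At 72 h limma called 0 of 8, against 0.0961%. Unadjusted p was under 0.05 for 2 genes, beside 3713 of all 33297 probe sets. CLC was then lower by -0.85 (95% interval -1.47 to -0.24; adjusted p = 0.281). That difference was -0.41 without wild-type 72 h replicate 1 (adjusted p = 0.58) and -1.30 without replicate 2 (adjusted p = 0.0228), the latter in a setting that called 0.378% of all probe sets. CPA3 was higher in the knockout at 72 h by 0.57 (95% interval 0.13 to 1.02; adjusted p = 0.318), where it read 4.39, 4.66 and 4.38 against 4.13, 4.17 and 3.41. Without wild-type 72 h replicate 3 the difference was 0.33 (adjusted p = 0.612). CPA3 was the 1 gene of 8 whose arrays did not overlap there, against 11.6% of all probe sets. PRG2 differed by -0.38 at 48 h and -0.22 at 72 h, HDC by 0.04 and 0.28, and EPX by 0.08 and -0.05.

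**Figure D3:**
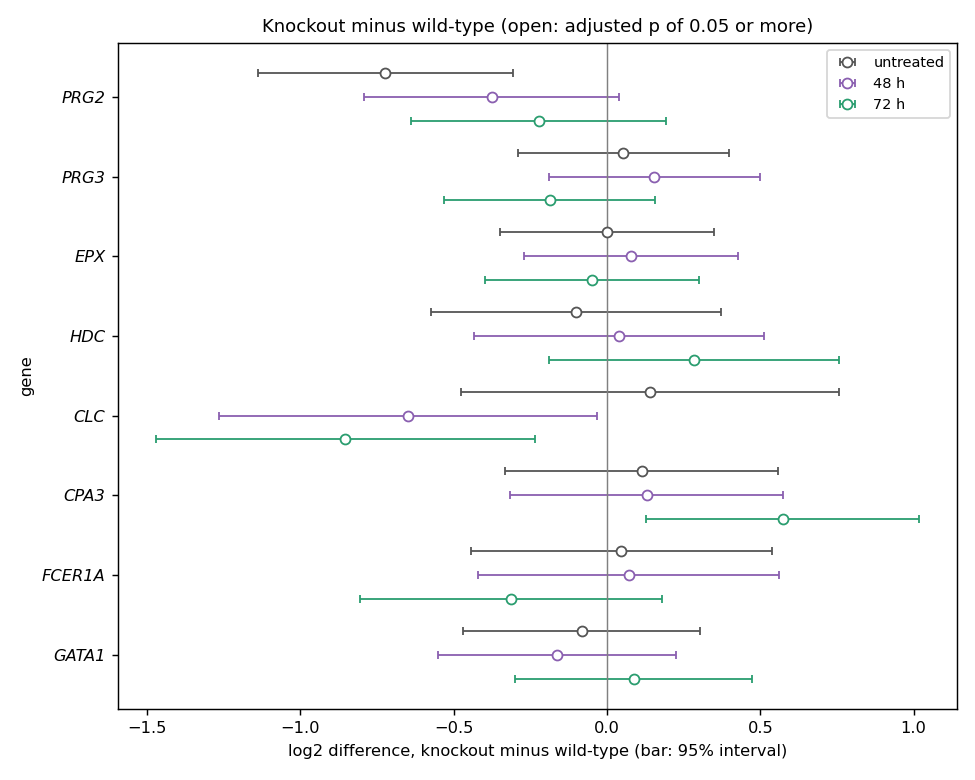
Knockout minus wild-type, as log2 difference with its 95% interval, for the 8 genes in untreated cells and at 48 h and 72 h of ATRA. The interval of PRG2 lies below 0 in untreated cells, and that of CLC lies below 0 at 48 h and 72 h. That of CPA3 lies above 0 at 72 h. No difference passed the adjusted test.

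The response to ATRA itself was compared between the lines as knockout change minus wild-type change. At 48 h limma called 0 of 8 genes (0 at unadjusted p under 0.05), against 0.003% of all probe sets. At 72 h it called 0 of 8 (1 at unadjusted p under 0.05), against 0%. Of all 33297 probe sets, 960 at 48 h and 1553 at 72 h had an unadjusted p under 0.05. For CLC the difference was -0.79 at 48 h (95% interval -1.66 to 0.08) and -0.99 at 72 h (95% interval -1.87 to -0.12; adjusted p = 1). For PRG2 it was 0.35 and 0.50. Without wild-type 72 h replicate 1 the CLC difference at 72 h was -0.55, and without replicate 2 it was -1.44 (adjusted p = 0.247). A difference between the lines in the CLC response was therefore not called. Of 7 monocyte and macrophage markers, 6 rose in wild-type cells at 72 h and 2 in the knockout, where 23.1% and 22.8% of all probe sets rose. For these 7 markers limma called 0 differences between the lines at 72 h (4 at unadjusted p under 0.05) and 0 differences of response (1 at unadjusted p under 0.05). In these 2 comparisons 3713 and 1553 of all 33297 probe sets had an unadjusted p under 0.05. The log2 of the summed signal of the 7 markers, to which CD68 gave the most, ran from 10.2 to 10.9 in wild-type cells at 72 h and from 9.95 to 10.1 in the knockout. It was 9.74 to 9.79 in untreated wild-type cells. The part of these markers in the CLC values was not tested.

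A further 83 genes around the members were grouped in 6 lists, of which 77 were measured. RNASE3, LTC4S, TPSAB1, TPSB2, SLC22A3 and CCR3 were not analysed here. The lists were chosen with earlier results of these data known, so their counts describe and do not test. At 72 h limma called 41 of the 77 in wild-type cells and 40 in the knockout, beside the 44% and 42% of all probe sets given above. The counts by direction below stand beside shares of all probe sets at 72 h. These were 23.1% higher and 21% lower in wild-type cells, and 22.8% higher and 19.2% lower in the knockout. Between the lines limma called 0 of the 77 in untreated cells, at 48 h and at 72 h. At unadjusted p under 0.05 there were 2, 7 and 11 of the 77, beside 382, 1972 and 3713 of all 33297 probe sets.

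Among 10 other eosinophil granule and lipid proteins, 4 rose and 2 fell at 72 h in wild-type cells (median 0.55, beside 0.12 for all probe sets), and 4 rose and 2 fell in the knockout. ALOX5AP, the protein that presents arachidonic acid for leukotriene synthesis, rose by 4.73 in wild-type cells and 4.48 in the knockout. RNASE2, the eosinophil-derived neurotoxin, fell by 1.54 on the log2 scale (adjusted p = 0.00968) in wild-type cells and by 1.55 in the knockout. S100A9, a calcium-binding protein of neutrophils and monocytes, rose by 1.47 and 1.27. RNASE1, a pancreatic-type ribonuclease, rose by 0.75 and 0.86. The 2 genes that rose most in this list, ALOX5AP and S100A9, are also products of neutrophils and monocytes.

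The list of mast cell and basophil proteases and proteoglycan had 10 measured genes, among them the non-proteases ENPP3, HPGDS, IL4 and IL13. Of these 10, 2 rose and 1 fell in each of the 4 ATRA comparisons. CTSG, cathepsin G, a protease of mast cells and of promyelocyte granules, fell by 2.48 at 72 h in wild-type cells (adjusted p = 6.46e-08) and by 2.93 in the knockout. TPSD1, a tryptase whose near-identical gene copies make its signal uncertain, rose by 0.69 and 0.78. SRGN, serglycin, the proteoglycan that holds granule contents, rose by 0.26 and 0.33.

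Around histamine, 3 of 8 genes rose at 72 h in each line and 0 fell, while HDC, the synthetic enzyme, fell as given above. AOC1, diamine oxidase, which degrades histamine outside cells, rose by 1.67 in wild-type cells (adjusted p = 2.32e-06) and 0.85 in the knockout. HNMT, which methylates histamine inside cells, rose by 0.73 and 0.77. HRH2, a histamine receptor, rose by 0.64 in wild-type cells and changed by 0.32 in the knockout without passing the test.

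In the list of the high-affinity IgE receptor and its signalling, 6 of 13 genes fell and 3 rose at 72 h in wild-type cells (median -0.22), and 7 fell and 2 rose in the knockout. MS4A3 is a relative of MS4A2 and its neighbour among protein-coding genes on chromosome 11, and was also listed here as a promyelocyte marker. It fell by 3.78 in wild-type cells and by 2.81 in the knockout. FCER1G, the signalling gamma chain that Fc receptors share, rose by 1.95 in wild-type cells (adjusted p = 0.00181), and its change of 1.09 in the knockout missed the threshold (adjusted p = 0.0542). FYN, a Src family kinase below the receptor, fell by 1.49 and 1.16, and GAB2, an adaptor, by 1.10 and 1.26.

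Of 14 receptors of these cells, 4 rose and 1 fell at 72 h in wild-type cells, and 2 rose and 3 fell in the knockout. CD63, a granule membrane tetraspanin used as a marker of basophil activation, rose by 1.18 and 0.97. ADGRE1, an eosinophil surface receptor, rose by 0.97 and 0.94. CSF2RB, the beta chain shared by the interleukin 3, interleukin 5 and GM-CSF receptors, rose by 0.79 in wild-type cells and changed by 0.21 in the knockout without passing the test. SIGLEC6, a lectin of mast cells, fell by 0.70 and 0.43.

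Among 22 transcription factors around GATA1, 8 rose and 7 fell at 72 h in wild-type cells and 6 rose and 8 fell in the knockout. CEBPB and CEBPE, leucine-zipper factors of maturing granulocytes, rose by 1.89 and 1.81 in wild-type cells and by 1.59 and 1.55 in the knockout. GFI1B, a transcriptional repressor that acts within the erythroid and megakaryocytic lineages, rose by 1.10 and 1.11. XBP1, a factor of secretory cells required for eosinophils, fell by 1.05 and 0.85. Of 11 markers of red cells and megakaryocytes, the other lineages that need GATA1, 3 rose and 0 fell at 72 h in each line. Of all probe sets, 23.1% rose in wild-type cells and 22.8% in the knockout, so this count of rises was near those shares.

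**Figure D4:**
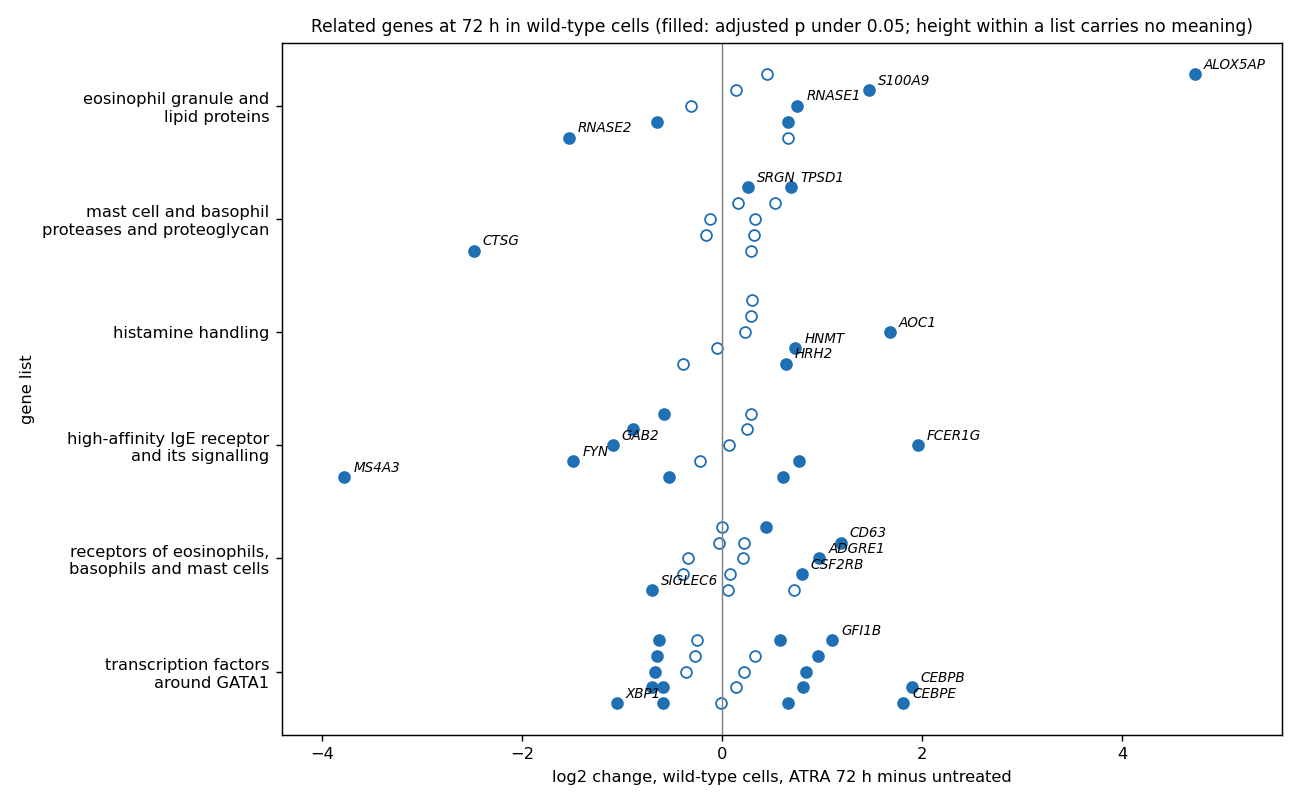
Log2 change at 72 h of ATRA in wild-type cells for the measured genes of the 6 related lists, where each point is 1 gene. ALOX5AP lies highest, at 4.73, and MS4A3 lowest, at -3.78.

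For the 4 genes whose group means spanned at least 1 log2 unit, the most similar patterns over the 18 arrays were sought among 17339 genes by Pearson's r. These values are a description: the arrays share the split between untreated and ATRA-treated cells, which enters r. For PRG2 they were NDUFA6 (0.988), LMAN2 (0.986) and FSCN1 (0.984). For EPX they were EBF3 (0.985), FAM210A (0.985) and RDH10 (0.982), and for HDC P2RY2 (0.992), MRPS11 (0.992) and EBF3 (0.991). For CLC they were KIAA0513 (0.944), CEP72 (0.941) and PARP9 (0.935). Over the 12 ATRA arrays alone, in the same order, r was 0.758, 0.671 and 0.728 for PRG2 and 0.697, 0.872 and 0.584 for EPX. It was 0.717, 0.665 and 0.556 for HDC and 0.910, 0.895 and 0.904 for CLC. PRG2 and HDC had an r of 0.978 with each other over 18 arrays and 0.394 over the 12 ATRA arrays. For EPX and HDC these values were 0.970 and 0.219, and for PRG2 and EPX 0.961 and 0.226.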

How the data were processed

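Total RNA of 18 NB4 samples was hybridised to Affymetrix whole-transcript arrays. The authors' deposited values were taken as log2 signal, a scale read from their range; how they were background-corrected, normalized and summarised is not stated in the sources. No further normalization was applied. Groups and replicate numbers came from the labels. Of 33297 probe sets, 19460 were annotated to 1 gene, 1754 to several and 12083 to none; a gene was read only from a probe set of its own. The members and lists were chosen with earlier results of these data known. Named genes were all members, TGM2, up to 4 genes per related list with the largest called wild-type change at 72 h, and the 3 genes most like each member that varied; markers that check the line were also named.

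Differences were tested with limma 3.58.1 in R 4.3.3 (1 mean per group over 18 arrays, eBayes with a trend, 2-sided, Benjamini-Hochberg over all probe sets, called at adjusted p under 0.05), after a test on simulated data. The number of arrays limits the precision. Same-numbered arrays of the lines deviated together by a rule of r over 0.1 for every pair at 72 h (lowest r 0.103). At 48 h the pairs had r of 0.196, 0.194 and 0.089, and only the last missed that rule. In untreated cells the lowest r was -0.128. Alternatives were quantile normalization, median centring, probe set filters, eBayes settings, weights per group, a replicate block, compared groups only and leaving out single arrays or, chosen after seeing the data, 4 arrays.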

Additional observations from a re-analysis of the deposited data

How the results depend on the processing

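The 16 changes called for the members kept their sign under every alternative run, and 14 of them kept their call. The rise of FCER1A at 72 h in wild-type cells missed the threshold after quantile normalization (adjusted p = 0.123), without untreated wild-type replicate 1 (0.0529) or 2 (0.0515) and without wild-type 72 h replicate 1 (0.0558). The rise of PRG3 in the knockout at 48 h was lost in 8 of 15 alternatives, with quantile normalization (adjusted p = 0.194), median centring (0.12), the 4 arrays left out (0.0909) and 5 single arrays left out (0.0817 to 0.14). With the brighter probe sets only, 4 members kept a value and 3 were called at 72 h in wild-type cells. Between untreated lines 1 member, PRG2, was called with weights per group (adjusted p = 0.000198) and with the compared groups only. At 72 h between the lines, leaving out single arrays gave 0 to 1 member, the 1 being CLC without wild-type 72 h replicate 2. Calls gained elsewhere were those of PRG3 at 72 h in wild-type cells (weights per group, and without replicate 3 of that group) and of CLC at 72 h in the knockout (compared groups only). A replicate block changed no member's call. Without the 4 arrays the eosinophil granule list in the knockout at 48 h went from 4 called to 2. The receptor list there went from 5 to 3 without them and with quantile normalization. Each member had 1 probe set of its own, so a mean over probe sets gave no value. The causes of these changes were not tested.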
